A study of Mus musculus with 25 samples.

Results

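Collagens are the triple-helical proteins of the extracellular matrix, and the 40 genes described here are the collagen chain genes of the mouse cortex other than 4 chains linked to the meninges. Members were chosen by name alone: every row of the deposited count table whose symbol is Col, a number, a and a number, without Col1a1, Col1a2, Col3a1 and Col11a1. The rule gave 40 of the 21720 genes in the table. All 40 passed the filter on low counts, so none was too low to test, though Col10a1 passed through the groups where it was high. Together they took between 0.0538% and 0.0952% of the counts of a library.

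RNA of the brain cortex was measured in 25 male mice aged 6 months, with 5 mice in each of 5 groups. Vehicle was given to the wild type mice, which were C57BL/6J. The other 4 groups were B6C3 mice of an amyloid model, all carrying the APPswe transgene and a further transgene, and received vehicle (model control), (-)-Vestitol (a plant isoflavan) at 5 mg/kg, Salviolone (a diterpenoid of Salvia plants) at 5 mg/kg, or a combination of 2.5 mg/kg of each. Injections were intraperitoneal, once daily, for 3 months. The study asks how the combination acts beside each compound alone. Strain and transgenes differ together between model control and wild type, so they cannot be told apart in that comparison. The combination holds each compound at a lower dose than the single-compound groups, so comparisons between them are not at matched doses.

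Each collagen molecule is a trimer of chains, built from 1, 2 or more gene products, and the type of trimer sets whether it forms fibrils, sheets, beaded filaments or a protein anchored in the cell membrane. In the brain, the network-forming type IV collagens lie in the basement membrane of blood vessels and at the brain surface, with type VI, XV and XVIII collagens close to it. The transmembrane collagen encoded by Col25a1 is made by neurons, and its shed ectodomain is a known component of amyloid plaques.

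Levels of different genes were compared as deposited FPKM (fragments scaled to gene length and library size). The lengths behind these values were not checked against transcripts, and the order of the genes depends on them. In model control, Col11a2 had a mean of 35.9 CPM (counts scaled to library size) and 2.72 FPKM. Col12a1 had 19.8 CPM and 5.55 FPKM there, so the 2 measures rank these genes in opposite order. Over the 25 mice the median FPKM was highest for Col6a1 at 15.6, followed by Col25a1 at 12.5, Col4a2 at 10.1 and Col4a1 at 9.64. Thus a beaded-filament chain, a neuronal transmembrane chain and the 2 common basement membrane chains led the list. Col9a3 (8.02), Col5a1 (7.31), Col12a1 (5.22) and Col16a1 (5.12) also had a median FPKM of at least 5, which 8 members reached. A median FPKM of at least 1 was reached by 19 members, and 7 were under 0.2. These 7 were Col9a1, Col4a4, Col6a6, Col13a1, Col17a1, Col4a3 and Col10a1. Col10a1, the hypertrophic cartilage collagen, was the lowest at 0.0134, and the only member with a count of 0 in any mouse (7 of 25).

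**Figure D1:**
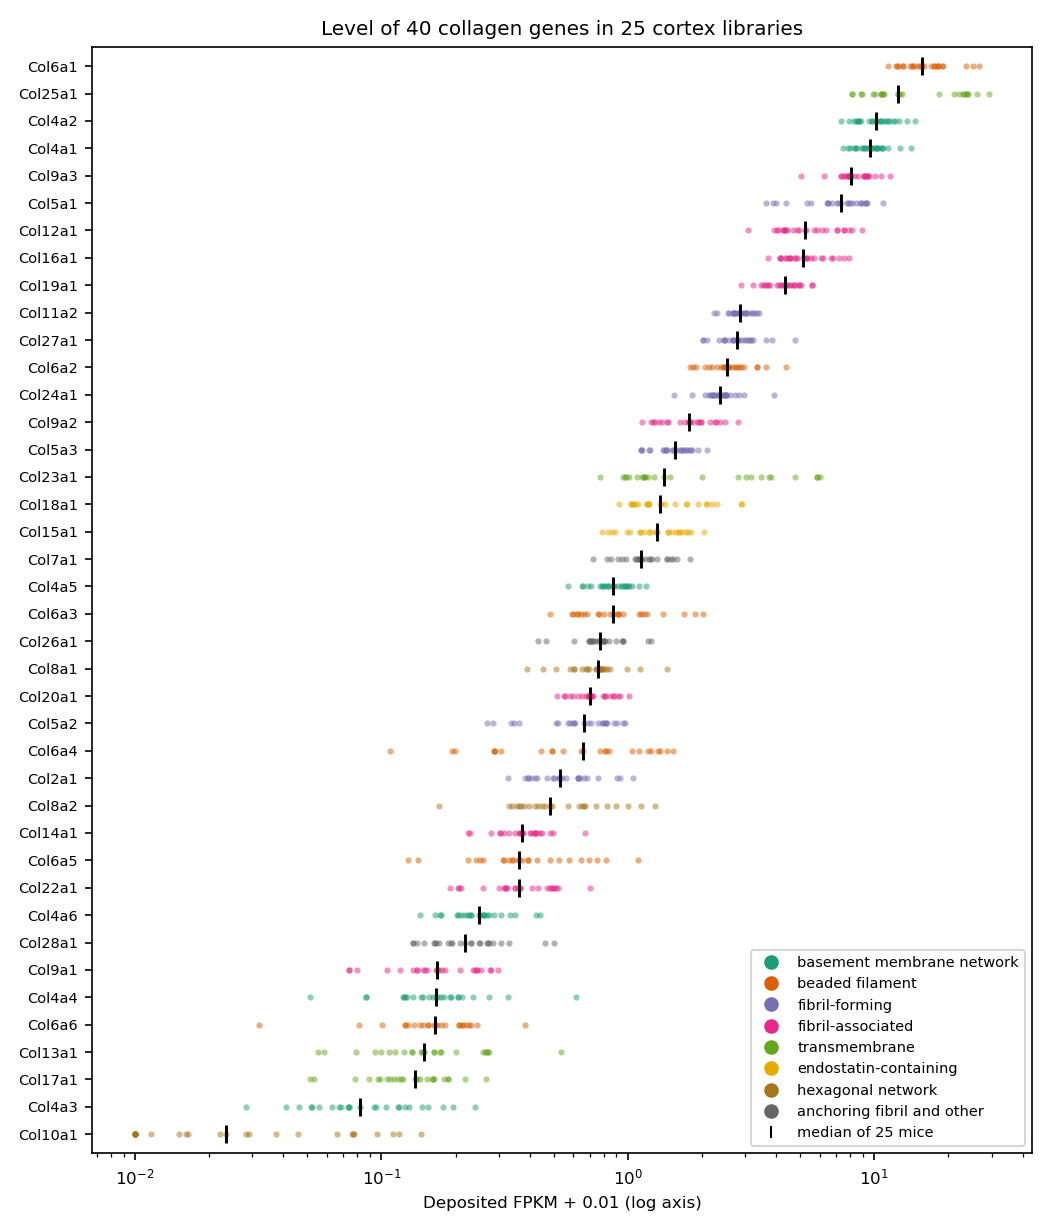
Deposited FPKM plus 0.01 (log axis) of the 40 collagen genes in each of 25 mice (points, coloured by class), with the median as a black bar. The medians run from 15.6 for Col6a1 to 0.0134 for Col10a1, and Col23a1 spreads from 0.763 to 6.02 FPKM.

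The libraries held between 59376320 and 109776852 counts, and 3 of the 5 combination libraries were deeper than any other library. App (the transgene) and Prnp (the gene whose promoter drives it in this kind of model) were higher in model control than in wild type by 1.35 ± 0.08 and 1.51 ± 0.07 (SE) on the log2 scale. Markers of cortical neurons were present in every mouse, with a summed level of 1049 to 1388 FPKM over 10 genes. Markers of hypothalamus and basal forebrain varied widely between mice. Their score, the mean log2 CPM of 12 genes (CPM, counts scaled to library size), was 2.23 ± 1.44 (SD, n = 5) in wild type, 0.66 ± 0.84 in model control, 0.13 ± 0.52 with vestitol, 0.73 ± 0.28 with salviolone and 3.75 ± 1.05 with the combination. Among the defining peptide genes, Hcrt (orexin) ranged from 0 to 0.141 CPM in model control and from 0 to 27.6 CPM with the combination. Wild type mouse 2 had the lowest score of its group (-0.11) and model control mouse 1 the highest of its group (2.10). Wild type mouse 3 also held pituitary markers, with a score of 6.19 against -3.20 to -1.49 in the other wild type mice. In bulk tissue, more cells of a kind and more RNA per cell cannot be told apart.

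In model control against wild type, 7 of the 40 collagen genes were lowered and 0 raised. Over all 16515 tested genes, 11.6% were called, 6.21% lowered and 5.37% raised, at an adjusted p under 0.05, which is the threshold used throughout. The lowered genes were Col6a1 and Col6a2 (chains of the type VI beaded filaments), Col25a1 and Col23a1 (transmembrane), Col16a1 and Col22a1 (fibril-associated) and Col18a1 (the source of endostatin). The median log2 fold change of the 40 genes was -0.14, against -0.01 over all tested genes. Groups did not overlap, with all model control mice below all wild type mice, for 3 members, against 2.13% of all tested genes. These were Col6a1, Col16a1 and Col22a1. With only these 2 groups in the fit, 2 of the 7 calls remained (Col6a1 and Col16a1), and 2.20% of all genes were called (349 of 15861). All model control mice lay above all wild type mice for 0 members, against 2.43% of all genes. At an unadjusted p under 0.05 there were 13 members, or 12 lower and 1 higher (25.8% of all genes).

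With the combination, 6 collagen genes were raised and 3 lowered against model control. The background was 15.0% of all tested genes called, 7.83% raised and 7.13% lowered. The raised genes were Col25a1, Col23a1, Col16a1, Col18a1, Col6a3 (the large chain of type VI) and Col9a2 (a type IX chain). The lowered genes were Col5a1 (a fibril-forming chain that sets fibril diameter) and the fibril-associated Col19a1 and Col20a1. The median log2 fold change was 0.11 for the 40 genes and 0.00 over all tested genes. All combination mice lay above all model control mice for 5 members and below for 2, against 7.05% and 5.59% of all tested genes. At an unadjusted p under 0.05 there were 16 members (28.0% of all genes).

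**Figure D2:**
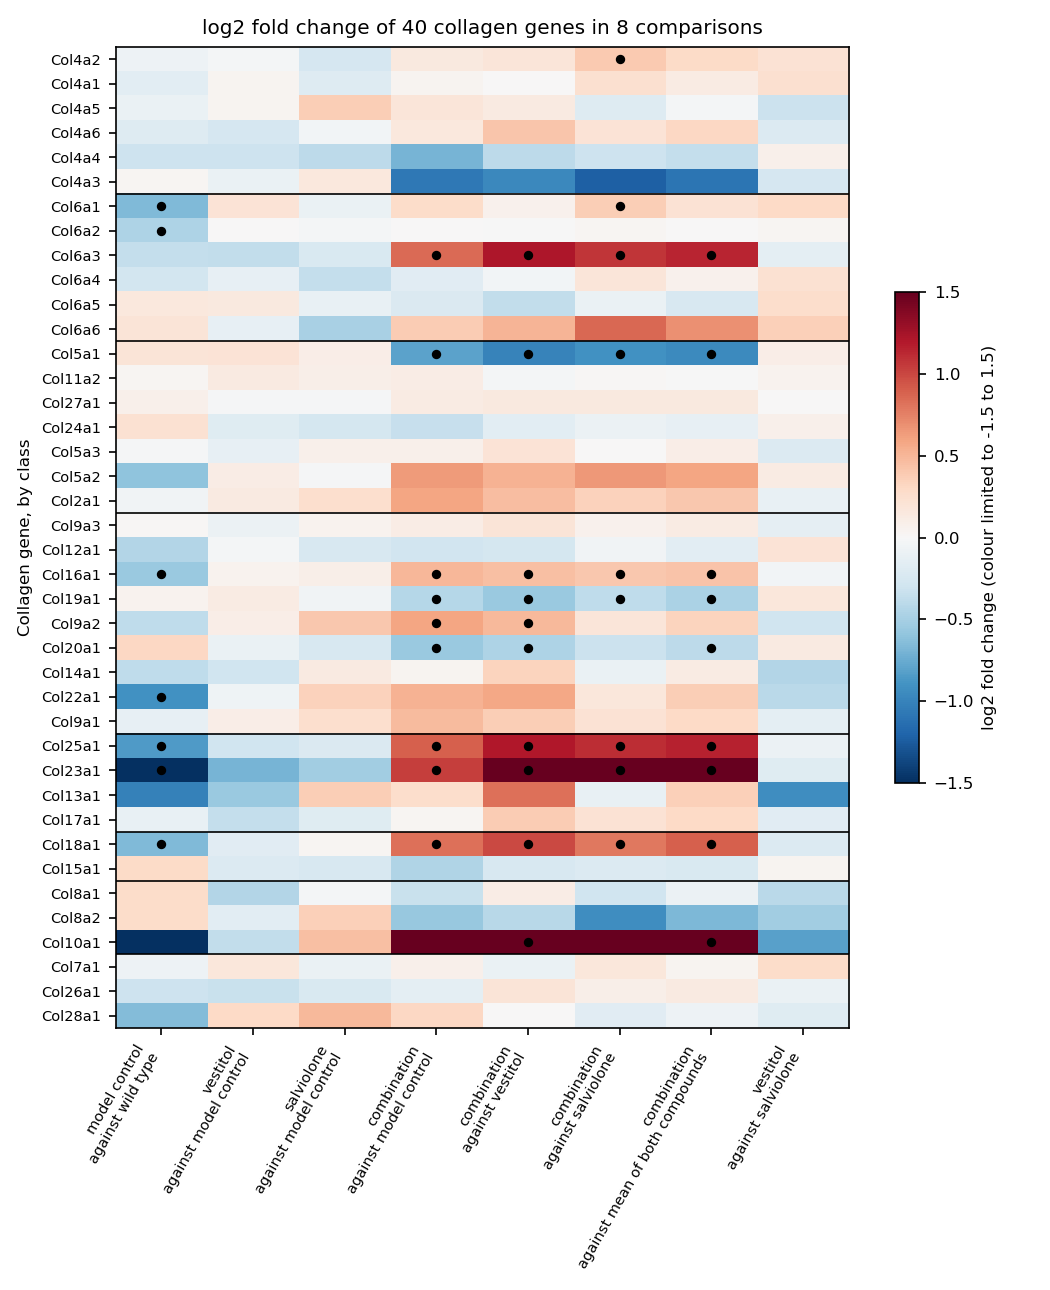
Log2 fold change (colour, limited to -1.5 to 1.5) of the 40 collagen genes (rows, by class) in 8 comparisons (columns), with a dot where the adjusted p was under 0.05. The dots stand in the model control column (7 genes) and the 4 combination columns, and the vestitol and salviolone columns against model control hold 0.

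At 5 mg/kg of a single compound, 0 of the 40 collagen genes passed the threshold. For vestitol against model control, 0 members were called, with 0% of all genes called, and 2 had an unadjusted p under 0.05 (7.56% of all genes). The mice of the 2 groups overlapped for all 40 members, while 0.781% of all genes had every vestitol mouse above and 0.842% below. The 2 members with an unadjusted p under 0.05 were Col23a1 and Col26a1, an extracellular collagen first described in testis and ovary. Col23a1 had a log2 fold change of -0.70 ± 0.30 (SE, edgeR adjusted p = 0.602) and Col26a1 of -0.33 ± 0.16 (edgeR adjusted p = 0.637). For salviolone, 0 members were called, with 0.0242% of all genes called, and 2 had an unadjusted p under 0.05 (11.5% of all genes). Here too the groups overlapped for all 40 members, with 1.14% of all genes above and 1.22% below. Col4a5, a basement membrane chain, was at 0.37 ± 0.15 (edgeR adjusted p = 0.334) and Col9a2 at 0.40 ± 0.18 (edgeR adjusted p = 0.372). In the fits of the single compounds the 95% intervals of the 40 fold changes reached a median of 0.40 on the log2 scale to either side. These intervals are not adjusted for the number of genes tested. Effects of this size and larger could thus go uncalled, as Col23a1 did at -0.70 with vestitol. DESeq2 also called 0 members in both comparisons, and 45 and 125 of all genes.

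The combination was also set directly against each compound. Against vestitol, 7 were raised and 3 lowered, with 11.3% and 10.6% of all genes (21.9% called in all). Against salviolone, 7 were raised and 2 lowered, with 9.66% and 8.23% of all genes (17.9% in all). Against the mean of both compounds, 6 were raised and 3 lowered, with 12.9% and 11.2% of all genes (24.1% in all). All combination mice lay above all vestitol mice for 6 members and below for 2 (9.39% and 8.68% of all genes). The same counts were 8 and 2 against salviolone (8.52% and 7.27%), and 6 and 2 against the mice of both compounds together (5.61% and 4.57%). At an unadjusted p under 0.05 there were 12 members against vestitol, 16 against salviolone and 15 against the mean of both (33.5%, 29.6% and 35.2% of all genes). All of these comparisons share the 5 combination mice, and so their counts are not independent. Vestitol and salviolone themselves differed in 0 members, with 0.684% of all genes called (0.593% higher with vestitol and 0.0908% lower). Their mice overlapped for all 40 members (1.71% of all genes above and 1.23% below), and 5 members had an unadjusted p under 0.05 (11.7% of all genes). DESeq2 called 0 members there too, with 1.79% of all genes called. In all, 14 members were called in at least 1 of the 8 comparisons (14 of 40, with 33.6% of all tested genes) and 26 in none.

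Among the genes raised with the combination over model control, the transmembrane Col23a1 and Col25a1 had the largest log2 fold changes. Col25a1 was at 63.5, 38.0, 75.6, 88.2 and 71.1 CPM in wild type mice 1 to 5, and at 54.7, 39.3, 32.9, 32.4 and 27.2 CPM in model control mice 1 to 5. It was at 30.8, 38.5, 24.4, 32.7 and 24.7 CPM with vestitol, and at 32.2, 30.1, 33.0, 38.0 and 27.2 CPM with salviolone. With the combination it was at 68.3, 73.0, 66.4, 68.7 and 70.1 CPM, within the wild type range and above every mouse of the other model groups. Wild type mouse 2 lay among the model control mice, and model control mouse 1 above the rest of its group. These 2 mice also had the lowest and the highest hypothalamus and basal forebrain score of their groups. A link between score and level in single mice was not tested. Against wild type, Col25a1 fell by 0.85 ± 0.18 (SE) on the log2 scale in model control (edgeR adjusted p = 0.00519). With the combination it rose 1.86-fold over model control (log2 fold change 0.89 ± 0.18, edgeR adjusted p = 0.00234). It was also 2.29-fold above vestitol (edgeR adjusted p = 0.000121) and 2.16-fold above salviolone (edgeR adjusted p = 0.000214).

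Col23a1, a transmembrane collagen with a shed ectodomain, gave the largest called difference between model control and wild type. It was at 45.1, 9.83, 43.4, 46.5 and 36.6 CPM in wild type mice 1 to 5 and at 21.2, 7.52, 15.8, 11.4 and 8.48 CPM in model control mice. With the combination it was at 29.1, 26.9, 28.7, 22.9 and 24.1 CPM, above all model control mice and below 4 of the 5 wild type mice. With vestitol it ranged from 5.97 to 9.27 CPM and with salviolone from 7.31 to 10.8 CPM. Again wild type mouse 2 was low and model control mouse 1 was the highest of its group. Its log2 fold change was -1.49 ± 0.30 in model control against wild type (edgeR adjusted p = 0.00363) and 1.03 ± 0.30 with the combination against model control (edgeR adjusted p = 0.0233). The latter call was lost when any of 4 mice was left out (model control mouse 2, 4 or 5 or combination mouse 1), with an adjusted p of up to 0.0696. Against vestitol the combination was higher by 1.74 ± 0.31 (edgeR adjusted p = 0.000379) and against salviolone by 1.55 ± 0.31 (edgeR adjusted p = 0.00103). The other 2 transmembrane chains, Col13a1 and Col17a1 (the hemidesmosome collagen), had median levels of 0.138 and 0.126 FPKM and were called in no comparison.

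**Figure D3:**
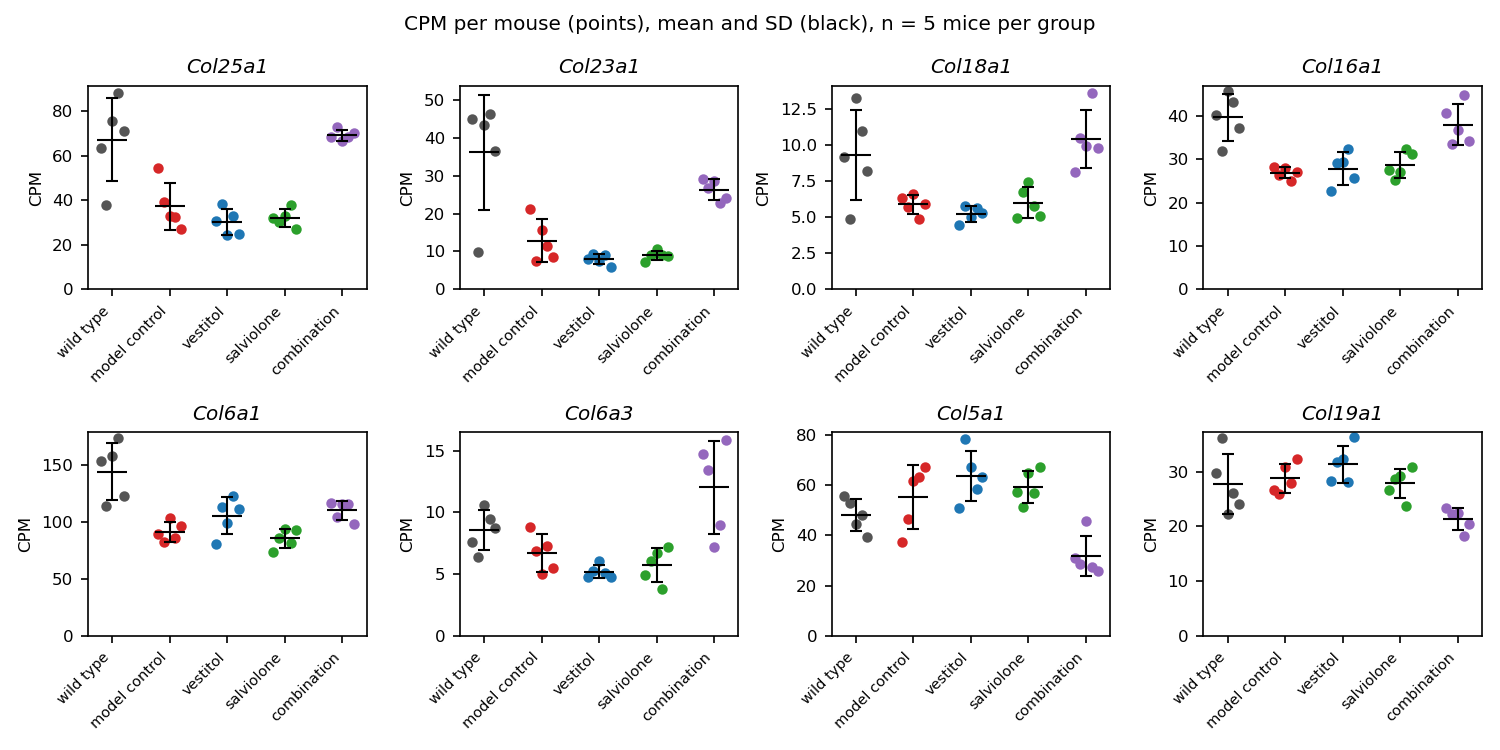
CPM of 8 collagen genes in each mouse (points), with the group mean and SD in black (n = 5 mice per group), each axis starting at 0. For Col25a1 the combination mice sit between 66.4 and 73.0 CPM, above all vestitol, salviolone and model control mice, while Col5a1 and Col19a1 are lowest with the combination.

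Type VI collagen forms beaded filaments between basement membrane and matrix. Col6a1 was at 153, 114, 157, 173 and 123 CPM in wild type mice and at 89.5, 81.8, 103, 85.3 and 96.7 CPM in model control mice, with no overlap. It fell by 0.66 ± 0.11 (SE) on the log2 scale (edgeR adjusted p = 0.00097), the smallest p of the 40 genes in that comparison. With the combination it was at 116, 104, 116, 116 and 98.3 CPM, which overlapped model control and did not pass the test (0.27 ± 0.11, edgeR adjusted p = 0.102). Its partner chain Col6a2 was also lowered in model control (-0.47 ± 0.15, edgeR adjusted p = 0.0439), at 28.6 ± 3.71 CPM (SD, n = 5) against 39.5 ± 7.58 CPM. That call held in only 2 of 10 fits that left out a mouse. Col6a2 stayed at 28.7 ± 4.20 CPM with the combination, a log2 fold change of 0.00 with a 95% interval of -0.30 to 0.31.

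Col6a3 was the type VI chain called with the combination against model control. It was at 14.7, 13.4, 7.18, 9.01 and 15.9 CPM there and at 8.82, 6.89, 4.97, 7.30 and 5.48 CPM in model control, so mouse 3 of the combination lay within the model control range. The log2 fold change was 0.85 ± 0.20 (edgeR adjusted p = 0.00548). Against vestitol it was 1.22 ± 0.20 and against salviolone 1.07 ± 0.20 (edgeR adjusted p = 0.000158 and 0.000493), with no overlap in either. Col6a1 was above salviolone too, by 0.37 ± 0.11 (edgeR adjusted p = 0.0202), a call lost without salviolone mouse 1 (edgeR adjusted p = 0.0608). Col6a4, Col6a5 and Col6a6, later-found type VI chains whose genes are neighbours on chromosome 9, were called in no comparison.

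Among the fibril-associated collagens, which sit on the surface of larger fibrils, Col16a1 was lowered in model control and raised with the combination. It was at 40.3, 32.0, 45.8, 43.3 and 37.3 CPM in wild type and at 28.2, 26.5, 28.0, 25.02 and 27.0 CPM in model control. With the combination it was at 40.6, 33.6, 36.7, 44.9 and 34.1 CPM. The model control mice lay below all mice of both other groups. The log2 fold change was -0.56 ± 0.10 against wild type (edgeR adjusted p = 0.00137) and 0.50 ± 0.10 with the combination (edgeR adjusted p = 0.00163), and both calls held whichever mouse was left out. With vestitol and salviolone the mean was 27.9 ± 3.77 and 28.7 ± 2.98 CPM (SD, n = 5).

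Col22a1, a collagen of tissue junctions, was at 2.91 to 4.30 CPM in wild type (median 3.11) and at 1.13 to 2.26 CPM in model control (median 1.99). It was lowered by 0.91 ± 0.23 (SE) on the log2 scale (edgeR adjusted p = 0.0109), and the combination value against model control did not pass (0.52 ± 0.23, edgeR adjusted p = 0.132). Col9a2 was raised with the combination, at 7.66, 5.83, 5.78, 9.01 and 7.41 CPM against 4.71, 6.02, 3.82, 4.72 and 4.48 CPM in model control. The 2 groups overlapped through model control mouse 2. The log2 fold change was 0.59 ± 0.17 (edgeR adjusted p = 0.0233), and the call was lost on leaving out any of 4 mice (model control mouse 3 or 5, combination mouse 1 or 4; adjusted p up to 0.0866).

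Col19a1 and Col20a1 went down with the combination. Col19a1, which in brain is made by neurons, was at 23.4, 22.3, 22.5, 18.2 and 20.4 CPM with the combination and at 26.7, 26.0, 30.8, 28.0 and 32.3 CPM in model control. These groups did not overlap, and the log2 fold change was -0.43 ± 0.11 (edgeR adjusted p = 0.00781). Col20a1 was at 5.61 ± 0.613 CPM (SD, n = 5) against 8.28 ± 1.21 CPM, also without overlap (-0.56 ± 0.13 (SE), edgeR adjusted p = 0.00395). Neither differed past the threshold between model control and wild type (0.06 ± 0.11 and 0.32 ± 0.13, edgeR adjusted p = 0.805 and 0.11). The other 4 members of the class, Col9a1, Col9a3, Col12a1 and Col14a1, were called in no comparison.

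Of the 7 fibril-forming chains, only Col5a1 was called in any comparison. It was at 31.1, 28.8, 45.7, 27.4 and 25.8 CPM with the combination and at 37.5, 46.7, 61.8, 63.1 and 67.3 CPM in model control. Combination mouse 3 was the highest of its group and lay within the model control range, where mouse 1 was the lowest. The log2 fold change was -0.80 ± 0.16 (edgeR adjusted p = 0.00177). Against vestitol, at 51.0 to 78.2 CPM, and salviolone, at 51.3 to 67.0 CPM, all combination mice were lower (0.499 and 0.535 of the level there, edgeR adjusted p = 0.000149 and 0.000365). Wild type mice were at 39.5 to 55.7 CPM, and the model control value against them did not pass the test (0.20 ± 0.16, edgeR adjusted p = 0.48). Col5a2, the chain that pairs with Col5a1 in the type V trimer, had a log2 fold change of opposite sign with the combination, which did not pass (0.64, edgeR adjusted p = 0.125). Col2a1, Col5a3, Col11a2, Col24a1 and Col27a1 were called in no comparison.

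In the endostatin-containing pair, Col18a1 was lowered in model control and raised with the combination. It was at 9.15, 4.91, 13.3, 10.98 and 8.22 CPM in wild type, at 6.35, 5.74, 6.60, 4.88 and 5.89 CPM in model control, and at 8.17, 10.5, 9.94, 13.7 and 9.84 CPM with the combination. Wild type mouse 2 was again the lowest of its group, while model control mouse 1 was not the highest of its group (6.35 against 6.60 CPM in mouse 3). The log2 fold change was -0.66 ± 0.18 against wild type (edgeR adjusted p = 0.0196) and 0.82 ± 0.18 with the combination (edgeR adjusted p = 0.00328). The first call was lost in 3 of 10 fits that left out a mouse (wild type mouse 3 or 4, or model control mouse 4; adjusted p up to 0.0776). The table's gene span of Col18a1 overlaps that of Slc19a1, the reduced folate carrier, over 7.72% of its length. The strand setting is not given in the sources used here, and Slc19a1 itself was at -0.20 ± 0.10 with the combination (edgeR adjusted p = 0.172). Col15a1, the other member of the pair, was called in no comparison.

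Of the main basement membrane chains, Col4a1 was called in no comparison and Col4a2 in 1. Col4a1 was at 75.0 ± 12.1 CPM (SD, n = 5) in wild type, 67.4 ± 9.61 in model control, 69.3 ± 12.1 with vestitol, 58.7 ± 5.76 with salviolone and 69.5 ± 3.96 with the combination. The 95% interval of its log2 fold change was -0.38 to 0.08 for model control against wild type and -0.19 to 0.28 for the combination against model control. Col4a2 was at 101 ± 19.1, 95.6 ± 15.3, 93.4 ± 19.9, 80.5 ± 9.40 and 106 ± 7.43 CPM in the same order. Its one call was the combination against salviolone (0.39 ± 0.13 (SE), edgeR adjusted p = 0.0463), which was lost in 8 of 10 fits that left out a mouse, with an adjusted p of up to 0.113. Col4a3, Col4a4, Col4a5 and Col4a6, the chains of specialised basement membranes such as that of the kidney, were called in no comparison.

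Of the hexagonal network collagens, Col8a1 and Col8a2, known from the endothelium of the cornea and from vessels, were called in no comparison. Col10a1 was at 0.563, 0, 1.11, 0.577 and 0.925 CPM in wild type, and at 0, 0.0538, 0.157, 0.103 and 0 CPM in model control. It was at 0, 0.173, 0, 0.0654 and 0 CPM with vestitol and at 0.302, 0.561, 0.471, 0.851 and 0.723 CPM with the combination. With salviolone it ranged from 0 to 0.245 CPM (median 0.0551). A count of 0 in these libraries allows up to 0.0273 to 0.0505 CPM, from counting error only. Wild type mouse 2 was at 0, unlike the rest of its group, and model control mouse 1 was at 0 too. All combination mice lay above all mice of the other 3 model groups. The value passed the test against vestitol (3.56 ± 1.16, edgeR adjusted p = 0.0288) and not against model control (3.19 ± 1.12, edgeR adjusted p = 0.0561). It also passed against the mean of both compounds (3.15, edgeR adjusted p = 0.00971), in all 15 fits that left out a mouse, and not against salviolone (2.74). Col10a1 passed the low-count filter through the groups where it was high, and these calls rest on reference groups at or near 0. The call against vestitol was lost in 5 of 10 fits that left out a mouse (vestitol mouse 1, 3 or 5, or combination mouse 4 or 5; adjusted p up to 0.0636). Without vestitol mouse 2 the log2 fold change there was 5.00. The gene lies wholly within Nt5dc1, so without strand its reads cannot be told apart from those of Nt5dc1, which was at -0.30 ± 0.29 against vestitol (edgeR adjusted p = 0.518). Col7a1 (the anchoring fibril of the skin), Col26a1 and Col28a1 (a collagen of peripheral nerve) were called in no comparison.

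Markers of brain regions and cell types were also called in these comparisons. Over all tested genes, 6.21% were lowered and 5.37% raised in model control, and 7.83% were raised and 7.13% lowered with the combination. Of the 12 hypothalamus and basal forebrain genes, 4 were lowered in model control against wild type and 9 were raised with the combination against model control. The combination mice had scores of 2.19 to 4.73, all above the 0.05 to 2.10 of the model control mice, so the score and the treatment cannot be told apart in that comparison. Of 12 hippocampus markers, 5 were lowered in model control and 3 raised with the combination. Of 10 striatum markers, 7 were raised with the combination and 0 called in model control. Of 10 cortical neuron markers, 5 were raised and 1 lowered in model control, and 1 was raised and 5 lowered with the combination. Of 12 choroid plexus markers, 1 was raised and 3 lowered with the combination and 0 called in model control, and 4 of 6 pituitary markers were lowered in model control. Markers of meningeal fibroblasts gave 0 calls with the combination and 1 lowered gene of 14 in model control. Of 8 oligodendrocyte precursor markers, 1 was lowered in model control and 3 raised with the combination. Of 10 thalamus markers, 1 was lowered in model control, and 2 were raised and 1 lowered with the combination. Of 12 mural cell markers, 1 was raised and 1 lowered in each comparison. Of 8 astrocyte markers, 1 was raised in model control and 1 lowered with the combination. Of 12 endothelium markers, 0 were called in either.

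With the hypothalamus and basal forebrain score added to the fit as a covariate, 0 collagen genes were called with the combination against model control, and so were 0 of all 16515 genes. The log2 fold change of Col25a1 went to 0.23 ± 0.20, that of Col23a1 to 0.27 ± 0.41, that of Col16a1 to 0.23 ± 0.14 and that of Col18a1 to 0.13 ± 0.24. Col19a1 went to -0.01 ± 0.13, while Col20a1 kept its size with a larger error (-0.61 ± 0.21, edgeR adjusted p = 0.543). Col5a1, Col6a3 and Col9a2 kept their direction and were not called. For model control against wild type, 2 of the 7 calls remained with that covariate (1.39% of all genes called), Col6a1 (-0.58 ± 0.13, edgeR adjusted p = 0.0308) and Col16a1 (-0.42 ± 0.11, edgeR adjusted p = 0.0487). Col25a1 there went to -0.48 ± 0.16 (edgeR adjusted p = 0.114). Without wild type mouse 3 and model control mouse 1, an alternative chosen after seeing the data, 5 of the 7 model control calls remained. All 9 combination calls remained in that fit, where 10.8% and 16.7% of all genes were called in the 2 comparisons.

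**Figure D4:**
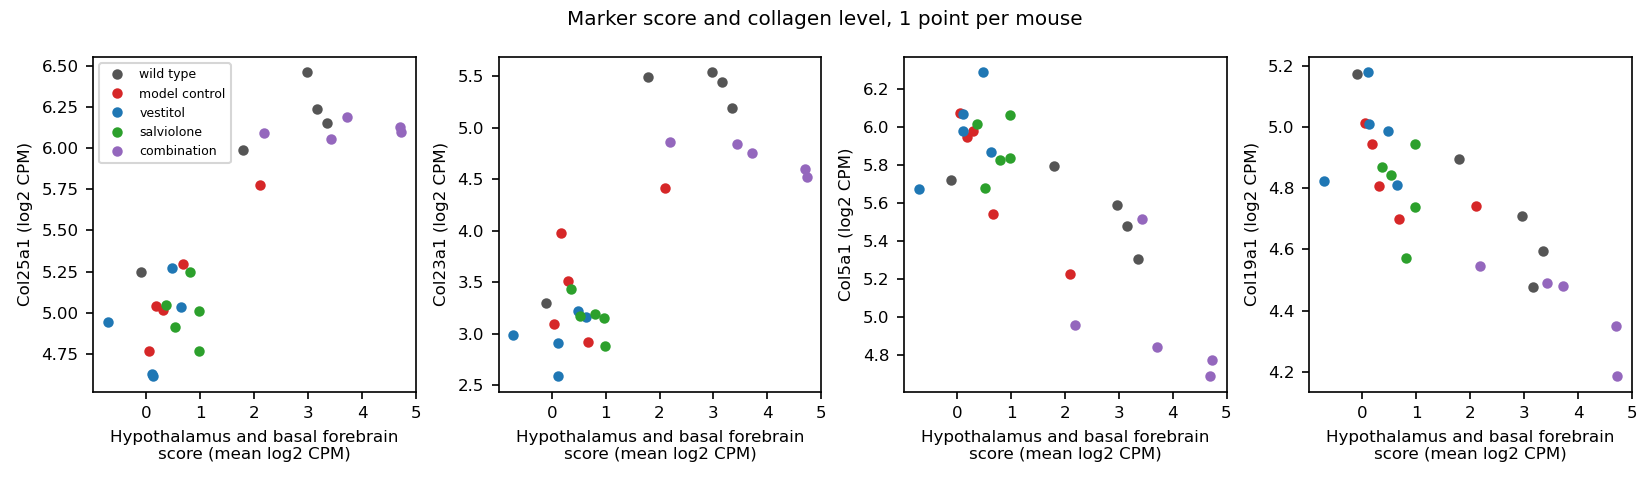
Level of Col25a1, Col23a1, Col5a1 and Col19a1 (log2 CPM) against the hypothalamus and basal forebrain marker score (mean log2 CPM of 12 genes), 1 point per mouse, coloured by group. The combination mice have scores of 2.19 to 4.73, the vestitol and salviolone mice stay below 1, and wild type mouse 2 (score -0.11) lies with the model control mice.

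Within groups, no relation between a member and a cell type score passed the threshold. After subtracting group means, 200 relations were tested over 25 mice (40 genes with 5 scores, 100000 permutations within groups), and 0 passed an adjusted p of 0.05. For Col25a1 and the hypothalamus and basal forebrain score, Pearson's r was 0.69 and Spearman's rho 0.62 (permutation p = 0.00323 and 0.00296, adjusted p = 0.123 and 0.0987). Without the 2 mice farthest from the median score (wild type mouse 2 and combination mouse 1), r was 0.60. For Col19a1, r was -0.71 and rho -0.69 (permutation p = 0.00103 and 0.0011, adjusted p = 0.0767 and 0.057), and r without the same 2 mice was -0.55.

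Chains that share 1 trimer differed in how closely they followed each other from mouse to mouse. Of 7 pairs tested on group-centred log2 CPM, 3 passed by Pearson's r and 4 by Spearman's rho. Col4a1 and Col4a2, which overlap by 22 bases and are read from opposite strands of 1 shared promoter, had r = 0.96 and rho = 0.91 (both permutation p = 1e-05, the smallest the 100000 draws can give, adjusted p = 3.5e-05 and 7e-05). Without the 2 mice farthest from the median, r was 0.94. Col6a1 and Col6a2 had r = 0.79 and rho = 0.74 (permutation p = 1e-05 and 4e-05, adjusted p = 3.5e-05 and 0.00014), and r = 0.73 without 2 mice. Col4a3 and Col4a4, a head-to-head pair 127 bases apart, had r = 0.60 and rho = 0.53 (permutation p = 0.00244 and 0.0119, adjusted p = 0.00569 and 0.0277), and r = 0.54 without 2 mice. Col4a5 and Col4a6, also neighbours, had r = -0.00 and rho = 0.04 (permutation p = 0.998 and 0.854, adjusted p = 0.998 and 0.854). Col5a1 and Col5a2 had r = 0.11 and rho = 0.19 (permutation p = 0.637 and 0.413, adjusted p = 0.743 and 0.482). Col9a2 with Col9a3 and Col8a1 with Col8a2 had r = 0.38 and 0.45 (permutation p = 0.0498 and 0.0626, adjusted p = 0.0872 and 0.0877), with rho = 0.36 and 0.49 (adjusted p = 0.131 and 0.0452).

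**Figure D5:**
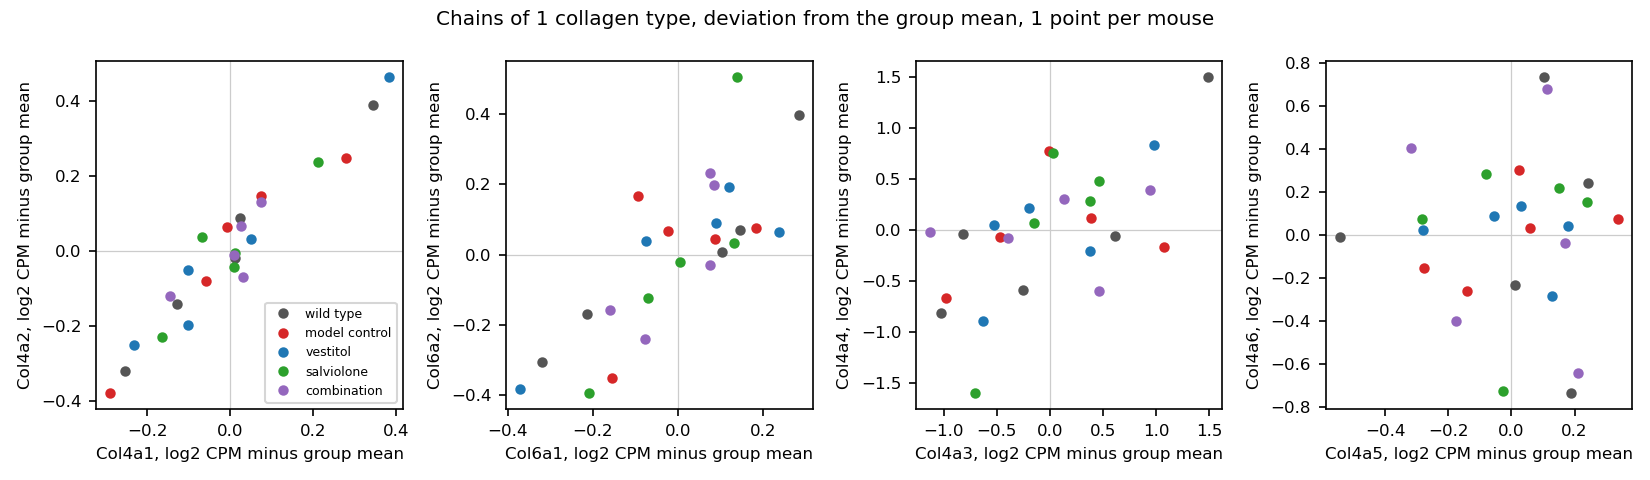
Deviation from the group mean (log2 CPM) of paired chains, 1 point per mouse, coloured by group. Col4a1 and Col4a2 lie close to a line (r = 0.96), Col6a1 with Col6a2 and Col4a3 with Col4a4 scatter more (0.79 and 0.60), and Col4a5 with Col4a6 shows no slope.

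The promoters of 6 genes called with the combination are shown for the letters they hold. RefSeq promoter entries (assembly GRCm38.p6, an older build than the mm39 of the deposited tables) were matched by symbol for 32 of the 40 members, with 35 promoters. The motif GGGCGG, the GC box bound by Sp1-family factors, was searched on both strands in the 250 bases before the start. It was in 20 of the 35 member promoters (57.1%) and in 32.7% of 32851 promoters in the table. The E-box CANNTG was in 51.4% and 66.2%, CCAAT in 31.4% and 33.8%, and TATAAA in 11.4% and 12.4%. These shares were not adjusted for the G and C content of the promoters, and their differences were not tested. Shown are 4 genes raised with the combination and 2 lowered, each 5′ to 3′ on the strand of the gene, with GGGCGG or its complement CCGCCC in capitals. They are chr3:130180595-130180844 (plus strand, Col25a1), chr11:51289670-51289919 (plus strand, Col23a1), chr4:130047590-130047839 (plus strand, Col16a1), chr10:77166531-77166780 (minus strand, Col18a1), chr2:27886175-27886424 (plus strand, Col5a1) and chr1:24587438-24587687 (minus strand, Col19a1).
Col25a1: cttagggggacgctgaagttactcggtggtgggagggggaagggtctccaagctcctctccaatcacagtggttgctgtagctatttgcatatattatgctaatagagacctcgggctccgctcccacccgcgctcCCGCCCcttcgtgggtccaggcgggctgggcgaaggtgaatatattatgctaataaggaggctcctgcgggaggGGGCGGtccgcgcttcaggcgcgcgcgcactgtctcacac
Col23a1: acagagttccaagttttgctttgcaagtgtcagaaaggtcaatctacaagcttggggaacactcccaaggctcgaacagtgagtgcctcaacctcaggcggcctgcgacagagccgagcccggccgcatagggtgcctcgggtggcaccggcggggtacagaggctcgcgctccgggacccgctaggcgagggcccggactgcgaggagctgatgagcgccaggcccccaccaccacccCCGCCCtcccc
Col16a1: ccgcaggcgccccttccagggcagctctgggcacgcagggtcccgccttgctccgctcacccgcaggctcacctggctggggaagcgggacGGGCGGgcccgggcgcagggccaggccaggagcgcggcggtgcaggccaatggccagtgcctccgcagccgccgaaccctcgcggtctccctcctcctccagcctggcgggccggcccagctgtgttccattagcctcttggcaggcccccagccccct
Col18a1: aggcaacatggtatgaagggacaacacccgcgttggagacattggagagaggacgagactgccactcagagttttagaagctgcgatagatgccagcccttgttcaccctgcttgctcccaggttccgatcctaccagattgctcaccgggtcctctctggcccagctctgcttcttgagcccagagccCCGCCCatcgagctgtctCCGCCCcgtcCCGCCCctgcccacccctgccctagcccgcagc
Col5a1: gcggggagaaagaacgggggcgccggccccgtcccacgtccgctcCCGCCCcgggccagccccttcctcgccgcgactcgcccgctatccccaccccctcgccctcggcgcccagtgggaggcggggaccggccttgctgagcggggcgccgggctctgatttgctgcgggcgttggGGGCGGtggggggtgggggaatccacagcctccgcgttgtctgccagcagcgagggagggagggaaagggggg
Col19a1: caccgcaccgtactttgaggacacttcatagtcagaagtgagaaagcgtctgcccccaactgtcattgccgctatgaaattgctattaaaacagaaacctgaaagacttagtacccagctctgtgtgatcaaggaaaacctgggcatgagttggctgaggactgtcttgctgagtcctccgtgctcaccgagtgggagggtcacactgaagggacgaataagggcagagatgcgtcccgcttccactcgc
The motif stood in 2 places in Col25a1 and Col5a1, in 1 in Col23a1 and Col16a1, in 3 in Col18a1 and in 0 in Col19a1, so genes that went up and genes that went down both held it. A further Col18a1 promoter in the table held 0. The G and C content of these 6 windows ran from 52.0% in Col19a1 to 76.4% in Col5a1, against a median of 52.4% over all promoters. A match describes the letters and is not evidence of binding.

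For the genes that make, cross-link and break down collagen, the share of all tested genes called was again 11.6% in model control and 15.0% with the combination. Of 17 genes for chain folding and modification, P4ha1 (a prolyl hydroxylase subunit) was raised in model control against wild type (0.43 ± 0.13, edgeR adjusted p = 0.0316). Colgalt1, which adds galactose to collagen lysines, was lowered there (-0.23 ± 0.07, edgeR adjusted p = 0.0224) and raised with the combination (0.20 ± 0.07, edgeR adjusted p = 0.0388). The other 15 were not called in either comparison. Of 14 genes for propeptide removal and cross-linking, Pxdn (peroxidasin, which cross-links type IV collagen) was lowered in model control (-0.55 ± 0.11, edgeR adjusted p = 0.00282). Adamts3 (0.45 ± 0.11, edgeR adjusted p = 0.0064) and Tll1 (0.64 ± 0.21, edgeR adjusted p = 0.0378), proteases that remove propeptides, were raised with the combination.

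Of the 9 tested collagen receptors of 10 listed, Adgrg1 (a receptor for type III collagen) was raised with the combination (0.68 ± 0.13, edgeR adjusted p = 0.00109), and 0 were called in model control. Of 15 basement membrane partners, the laminin chains Lamb1 (-0.75 ± 0.12, edgeR adjusted p = 0.000509), Lamc1 (-0.24 ± 0.07, edgeR adjusted p = 0.0304) and Lama1 (-0.66 ± 0.21, edgeR adjusted p = 0.038) were lowered in model control. With the combination, Lamb1 (0.53 ± 0.12, edgeR adjusted p = 0.00344) and Sparc, a collagen-binding matrix protein (0.93 ± 0.19, edgeR adjusted p = 0.00209), were raised. Of 12 tested genes for collagen breakdown and uptake, Timp2 (an inhibitor of matrix metalloproteinases) was lowered in model control (-0.65 ± 0.13, edgeR adjusted p = 0.0034) and raised with the combination (0.73 ± 0.13, edgeR adjusted p = 0.000904). Fap, a fibroblast protease, was lowered with the combination (-1.57 ± 0.44, edgeR adjusted p = 0.0163). In these 5 lists, 0 genes were called with vestitol or salviolone. The median log2 fold change of the lists ran from -0.21 to 0.01 in model control and from -0.08 to 0.26 with the combination.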

How the data were processed

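Cortex RNA of 25 mice was sequenced, and per the labels' protocols a TruSeq and a SMARTER kit were used. Trim Galore, STAR and mm39 are named in the submitters' processing notes. Not given in the sources used here are the counting tool and the strand setting. Raw gene counts and FPKM values were deposited by the authors. The deposited FPKM were used to compare levels between genes and for summed marker levels. Among the alternatives, they also served in limma fits and in a repeat of the chain-pair correlations. The further transgene that the labels name is not reported here.

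Low genes were removed with filterByExpr on the groups (minimum count 10), leaving 16515. A single edgeR 4.0.16 model with a term for each group was fitted to all 25 mice (R 4.3.3, TMM, robust quasi-likelihood F test, two-sided). In simulated data with known changes, the same kind of fit missed some of them. P-values were adjusted with Benjamini-Hochberg over all tested genes of a comparison and called under 0.05. SE are from the F statistic, and intervals are 95%. CPM use TMM-scaled library sizes (factors 0.980 to 1.04). A score is the mean over its genes of log2 CPM with a prior count of 2. Chain pairs (7) and member-score relations (200) were 2 families of within-group permutation tests. Multiples of 4 made up 44.3% of the counts between 4 and 39, where chance gives 25%, so the fit was repeated on counts divided by 4. How the counting gave this is not stated.

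The members and lists were chosen with earlier results of these data known. Named members were those called in any of 8 comparisons, the 2 smallest p in each of the 4 main comparisons, and Col25a1, Col4a1 and Col4a2. Called pathway genes were named, up to 4 a list and comparison. Col5a2, Nt5dc1, Slc19a1 and Hcrt were named after their values were seen. Alternatives were RLE size factors, no or a stricter filter (1 CPM in 5 mice), DESeq2 1.42.0, limma 3.58.1 (voom, or log2 FPKM plus 0.1 or 1), only the groups compared, a replicate block, marker scores as covariates, leaving out each mouse, and an unadjusted p. Chosen after seeing the data were a fit without wild type mouse 3 and model control mouse 1 and the fit with both striatum and hypothalamus scores as covariates.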

Additional observations from a re-analysis of the deposited data

Results flagged for a closer look

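In 4 of 85 groups checked (17 named collagen genes in 5 groups of 5 mice), 1 mouse stood apart: its gap to the next mouse, divided by the whole range of the group, was above 0.71. Chance flags about 1 in 20 groups. Col23a1 in wild type mouse 2 was at 9.83 CPM, against 36.6 to 46.5 CPM in the other wild type mice (0.73). Col22a1 in wild type mouse 4 was at 4.30 CPM, against 2.91 to 3.15 CPM (0.823). Col5a1 in combination mouse 3 was at 45.7 CPM, against 25.8 to 31.1 CPM (0.731). Col6a2 in model control mouse 2 was at 22.2 CPM, against 29.3 to 31.9 CPM (0.732).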

How the results depend on the processing

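Of the 44 calls of a member in a comparison, DESeq2, limma-voom, counts divided by 4 and a block for the replicate number each kept all 44. The replicate block gave the same direction throughout. Mice of the same number did not deviate together from their group means. Of 50 same-number pairs of mice from different groups, 0 had a correlation of deviations above 0.1 (-0.092 to 0.091). Only 4 mice correlated best with their own number. What the numbers stand for cannot be told from this. With the hypothalamus and basal forebrain score as a covariate, 2 of the 44 calls remained, and with the striatum and hypothalamus scores, a fit added after seeing the data, 1 did (Col6a1).

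For model control against wild type, 7 members were called (11.6% of all genes), and 2 with only the groups compared (2.20%), 4 with the meningeal fibroblast score (5.20%), 2 with the hypothalamus score (1.39%), 1 with the striatum and hypothalamus scores (0.932%), and 13 by an unadjusted p (25.8%). Leaving out 1 mouse gave 5 to 9 (5.74% to 17.6% of all genes). The combination against model control (9 called, 15.0% of all genes) had 0 with either hypothalamus covariate fit (0 of all genes in both). It had 16 by an unadjusted p (28.0%) and 7 to 10 without 1 mouse (10.9% to 15.6%). Against vestitol (10 called, 21.9%) it had 0 and 0 (10 and 0 of all genes). Leaving out 1 mouse gave 8 to 10 there (17.2% to 20.6%). Against salviolone (9 called) it had 0 and 0, 16 by an unadjusted p, and 7 to 10. Against the mean of both (9 called, 24.1%) it had 0 and 0 (0 and 0 of all genes). It had 14 by limma-voom (28.9%), 15 by an unadjusted p (35.2%), and 9 to 11 without 1 mouse (19.4% to 23.4%). By an unadjusted p, vestitol had 2, salviolone 2 and vestitol against salviolone 5 (7.56%, 11.5% and 11.7% of all genes). All 3 had 0 whichever mouse was left out, with up to 0.0120%, 0.180% and 1.22% of all genes called.

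Signs turned in few fits. With the hypothalamus score, the log2 fold change of Col9a2 was -0.0599 against vestitol and that of Col19a1 0.0261 against salviolone. With both scores, Col9a2 was at -0.131 against vestitol, and Col19a1 at 0.0394, 0.125 and 0.0507 against model control, salviolone and the mean of both. Uncalled values near 0 turned too. Col4a2 in model control against wild type was at 0.0158 with the hypothalamus score, 0.0585 with both scores, 0.0482 without wild type mouse 3 and model control mouse 1, and -0.153 to 0.0273 without 1 mouse. Col4a1 with vestitol was at -0.00922 with the meningeal score and -0.0687 to 0.113 without 1 mouse, and Col4a2 with vestitol at 0.0211 with both scores and -0.169 to 0.0288 without 1 mouse. With the combination, Col4a1 was at -0.0932 with the hypothalamus score and -0.0222 to 0.118 without 1 mouse, and Col4a2 at -0.0329 with the hypothalamus score. The Col4a5 and Col4a6 correlation was 0.0191 on FPKM and 0.0904 without 2 mice. The cause of these changes was not tested. Over the 25 libraries a count of 0, as Col10a1 had in 7 mice, allows up to 0.0273 to 0.0505 CPM, from counting error only.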
